A study of Mus musculus with 12 samples.

Results

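The level of 8 genes that mark the striatum or the hippocampus was read in 6 mouse brain RNA-seq libraries, to ask whether genes of both structures were high in the same libraries. The genes were listed by symbol as known markers, with earlier results of these data known. They are 4 striatal markers (Drd1, Drd2, Adora2a and Ppp1r1b) and 4 hippocampal markers (Prox1, Fibcd1, Wfs1 and Spink8), out of 55073 gene symbols with values. Each library comes from 1 numbered mouse (678, 687, 688, 698, 700 or 703). The labels describe 12 cortex samples, 6 from Larp1 KO mice (Nestin-Cre with both Larp1 alleles floxed) and 6 from Larp1 WT mice (Nestin-Cre alone), which the titles split into 3 replicates per genotype and 2 parts per replicate. Every mouse therefore carries Nestin-Cre, a driver active in neural progenitors that recombines in neurons and some glia throughout the brain, on a C57BL/6J background. The methods describe posterior cortex of male mice for RNA-seq, and give no age for these mice. The genotype behind each mouse number is not given in the labels, the files or the methods, so the 6 libraries were treated as 6 separate animals, KO and WT mice were not compared, and values are given per library. That each file is cortex is taken from the labels, since the files name no tissue.

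The striatum lies under the cortex and is built mainly from projection neurons of the direct pathway, which carry the dopamine receptor D1 and substance P, and of the indirect pathway, which carry the dopamine receptor D2, the adenosine receptor of type 2A and enkephalin. Signals of both receptor pathways meet at cAMP and at DARPP-32, the phosphatase inhibitor encoded by Ppp1r1b. The hippocampus borders the posterior cortex, with granule cells of the dentate gyrus that need the transcription factor Prox1 and pyramidal cells of field CA1 that are known for Fibcd1, Wfs1 and Spink8. None of these genes is absent from cortex by definition: Drd1 and Ppp1r1b are known from deep cortical layers, Prox1 from a class of cortical interneurons, and Wfs1 from upper cortical layers and from striatum.

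Promoter windows are shown for the members that have one in RefSeq and whose level differed at least 2-fold between libraries, which were Drd1, Drd2 and Fibcd1. Drd1 and Drd2 had their highest levels in the same 3 libraries and Fibcd1 did not. Each window runs from 250 bases before to 50 bases after the RefSeq start, 5′ to 3′ on the strand of the gene (build GRCm38.p6), with every GC box (GGGCGG, or CCGCCC for the other strand) in capitals. The Drd1 window is chr13:54055609-54055908 (minus strand), the Drd2 window chr9:49340153-49340452 (plus strand) and the Fibcd1 window chr2:31845956-31846255 (minus strand).
Drd1: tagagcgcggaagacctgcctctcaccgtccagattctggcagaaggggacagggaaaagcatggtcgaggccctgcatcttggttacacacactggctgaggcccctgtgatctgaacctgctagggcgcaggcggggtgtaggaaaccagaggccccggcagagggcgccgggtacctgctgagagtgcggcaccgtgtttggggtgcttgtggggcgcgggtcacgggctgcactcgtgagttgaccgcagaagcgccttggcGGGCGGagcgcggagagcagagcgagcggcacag
Drd2: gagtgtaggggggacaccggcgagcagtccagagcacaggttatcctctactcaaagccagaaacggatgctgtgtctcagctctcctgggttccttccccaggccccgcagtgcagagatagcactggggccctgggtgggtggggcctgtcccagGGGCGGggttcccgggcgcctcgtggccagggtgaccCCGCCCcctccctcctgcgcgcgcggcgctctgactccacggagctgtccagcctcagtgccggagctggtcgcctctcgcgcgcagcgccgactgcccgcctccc
Fibcd1: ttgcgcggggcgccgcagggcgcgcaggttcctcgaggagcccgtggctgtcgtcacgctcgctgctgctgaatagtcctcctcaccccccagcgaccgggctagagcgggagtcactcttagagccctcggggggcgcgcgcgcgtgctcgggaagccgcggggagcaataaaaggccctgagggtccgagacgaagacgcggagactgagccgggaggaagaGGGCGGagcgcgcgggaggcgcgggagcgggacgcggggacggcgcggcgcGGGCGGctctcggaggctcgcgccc
The Drd1 window holds 1 GC box, and the Drd2 and Fibcd1 windows hold 2 each. G and C make up 65.7% of the Drd1 window, 70.3% of the Drd2 window and 74.3% of the Fibcd1 window. A GC box is common, as 35.7% of all 32851 windows of this length hold one (11714 windows). The Drd2 window lies wholly upstream of the gene start in GENCODE M21. RefSeq windows were matched for 5 of the 8 members.

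The libraries held between 34689262 and 44463362 expected counts, which are estimated reads per transcript and are not normalized. Levels are given as TPM, a share of all RNA molecules that is corrected for transcript length. Of all genes, 16301 had a mean of at least 10 counts and were taken as detected. Among the members, 7 of 8 were detected, and Spink8 was not. The cortex label was checked against 10 cortical genes. Slc17a7, the vesicular glutamate transporter of cortical projection neurons, had 347 to 492 TPM, the superficial layer marker Lamp5 had 45.8 to 76.7 TPM and the upper layer factor Cux2 had 31.4 to 44.9 TPM, which are the 3 most abundant of the 10. The least abundant, Scnn1a of layer 4 and Nxph4 of layer 6b, named after their values were seen, had 0.81 to 2.12 TPM and 1.41 to 4.68 TPM, levels like those of Drd2 and Adora2a. TPM values of the whole library of mouse 703 were shifted up, by a median over detected genes of 0.18 on the log2 scale from the mean of the 6 libraries, and those of mouse 700 were shifted by -0.17. As a result, 50.0% of detected genes had their highest TPM in mouse 703, against 15.1% in mouse 678, 7.74% in mouse 687, 6.74% in mouse 688, 15.6% in mouse 698 and 4.8% in mouse 700. After TMM scaling of the counts, which matches the bulk of genes between libraries, the share of genes highest in mouse 703 was 22.3%. Main results that change under that scaling are named as they come. For single genes, ratios and the lowest library, often mouse 700 in TPM, can also change, and not every such change is named.

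All 4 striatal markers had their 3 highest TPM values in mice 687, 688 and 703. None of the 3 detected hippocampal markers did. Over all 16301 detected genes, 9.34% had their 3 highest values in these 3 libraries. The set of libraries was read from the striatal markers themselves, so the count of 4 describes them and carries no test. Under TMM scaling the counts were again 4 of 4 striatal and 0 of 3 hippocampal markers, beside 12.8% of all genes.

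**Figure D1:**
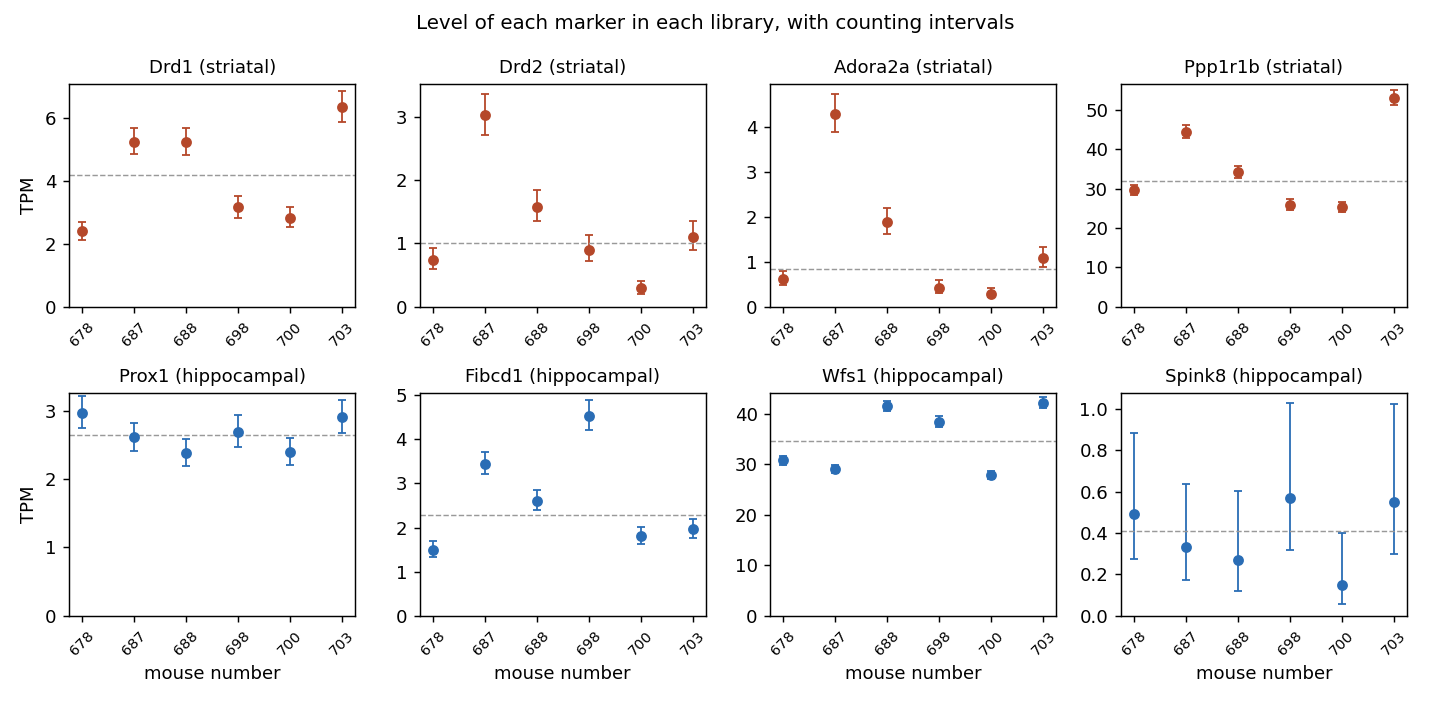
TPM of each marker (vertical axis, from 0) in the library of each numbered mouse (horizontal axis), striatal markers in the upper row and hippocampal markers in the lower row. Points are single libraries, bars are 95% counting intervals and the dashed line is the median of the 6 libraries. The 4 striatal markers lie above their median in mice 687, 688 and 703, while Fibcd1 is highest in mouse 698 and Wfs1 in mice 688 and 703. For Prox1 and Spink8, libraries that are neighbours in the order are not separated by the intervals.

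Drd2, the D2 receptor of indirect pathway neurons (GRCm38 chromosome 9, 49340627 to 49408177, plus strand), was measured at 0.74 TPM in mouse 678, 3.03 TPM in mouse 687, 1.58 TPM in mouse 688, 0.90 TPM in mouse 698, 0.29 TPM in mouse 700 and 1.10 TPM in mouse 703. Mouse 687 stood above every other library and mouse 700 below every other. Mouse 698 was not separated by counting error from mouse 703 above it or from mouse 678 below it. The highest value was 10.4 times the lowest, with a 95% counting interval of 7.27 to 15.0. The counts behind these values ran from 32 to 329. All intervals of this kind cover counting error only, since each mouse has 1 file and the spread between repeat dissections of a mouse is not known. The files list a single Drd2 transcript, so the long and short forms of the receptor were not separated.

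Adora2a, the adenosine receptor found with D2 on the same neurons (chromosome 10, 75316877 to 75334784, plus strand), had 0.61 TPM in mouse 678, 4.29 TPM in mouse 687, 1.89 TPM in mouse 688, 0.42 TPM in mouse 698, 0.29 TPM in mouse 700 and 1.08 TPM in mouse 703. Its order over the libraries was that of Drd2 except that mice 678 and 698, which counting error did not separate for either gene, changed places. The highest value was 14.8 times the lowest (95% counting interval 10.3 to 21.2, counts of 32 to 384). The TPM of Adora2a divided by that of Drd2 lay between 0.47 in mouse 698 (interval 0.31 to 0.70) and 1.42 in mouse 687 (1.22 to 1.64). The ratio of the 2 genes thus had a smaller range than either gene. The transcript Adora2a-201 held at least 96.7% of the counts of the gene in every library.

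Drd1, the D1 receptor of direct pathway neurons (chromosome 13, 54051183 to 54055705, minus strand), had 2.39 TPM in mouse 678, 5.24 TPM in mouse 687, 5.23 TPM in mouse 688, 3.15 TPM in mouse 698, 2.82 TPM in mouse 700 and 6.34 TPM in mouse 703. The values fell into separate clusters, with mice 687, 688 and 703 at 5.23 TPM or more and the other 3 libraries at 3.15 TPM or less. The highest value was 2.65 times the lowest (95% counting interval 2.31 to 3.05, counts of 291 to 644). Unlike Drd2, Drd1 was highest in mouse 703, and mice 687 and 688 were not separated by counting error. The TPM of Drd1 divided by that of Drd2 was 3.23 in mouse 678, 1.73 in mouse 687, 3.31 in mouse 688, 3.5 in mouse 698, 9.72 in mouse 700 and 5.76 in mouse 703. Both mouse 700 (interval 6.76 to 14.0) and mouse 687 (1.51 to 1.98) stood outside the intervals of the 3 libraries with ratios between 3.23 and 3.5. Mouse 703 (4.62 to 7.19) also stood above those intervals, and its interval overlapped that of mouse 700.

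Ppp1r1b, which encodes DARPP-32 (chromosome 11, 98348404 to 98357796, plus strand), was the most abundant striatal marker, at 29.6 TPM in mouse 678, 44.5 TPM in mouse 687, 34.1 TPM in mouse 688, 25.8 TPM in mouse 698, 25.3 TPM in mouse 700 and 53.1 TPM in mouse 703. Like Drd1 it was highest in mouse 703, with mouse 687 next, although under TMM scaling these libraries were close, at 69.7 and 68.8 CPM (counts relative to the scaled library size). The highest value was 2.10 times the lowest (95% counting interval 1.97 to 2.23), which became 1.80 times under TMM scaling. The retained intron transcript Ppp1r1b-202 took between 17.9% and 25.6% of the counts of the gene, with a median of 23.5%. Levels of Ppp1r1b were 6.53 to 12.4 times those of Drd1, with the lowest ratio in mouse 688 and the highest in mouse 678.

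Prox1, the dentate granule cell factor (chromosome 1, 190118035 to 190170714, minus strand), was nearly flat, at 2.97 TPM in mouse 678, 2.61 TPM in mouse 687, 2.38 TPM in mouse 688, 2.69 TPM in mouse 698, 2.40 TPM in mouse 700 and 2.91 TPM in mouse 703. No 2 libraries that were neighbours in this order differed beyond counting error (5 of 5 neighbouring pairs). The highest value was 1.25 times the lowest (95% counting interval 1.11 to 1.40), and 1.07 times under TMM scaling. A full order of libraries could thus not be read from Prox1, although the interval between its extremes, mice 678 and 688, excluded 1 in TPM. The antisense gene Prox1os, which overlaps it, had 0.26 to 0.57 TPM. The sources do not say whether strand was used in the counting, so reads of Prox1 and Prox1os may be mixed. Prox1 is also known from caudally derived interneurons. A list of 8 genes of cortical interneurons, not limited to that class, summed to 327 to 399.8 TPM. Cck, Npy and Reln were the highest by median, and Cck alone had 239 to 306 TPM. The part of interneurons in the level of Prox1 was not tested.

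Fibcd1, a membrane protein known from CA1 (chromosome 2, 31813290 to 31846005, minus strand), was measured at 1.5 TPM in mouse 678, 3.45 TPM in mouse 687, 2.61 TPM in mouse 688, 4.54 TPM in mouse 698, 1.81 TPM in mouse 700 and 1.97 TPM in mouse 703. It was the most variable of the detected hippocampal markers, with a highest value of 3.03 times the lowest (95% counting interval 2.64 to 3.47, counts of 286 to 721). Its next libraries after mouse 698 were mice 687 and 688, which were among the 3 highest for the striatal markers. For Ppp1r1b and for Adora2a, mouse 698, the highest library of Fibcd1, was not separated by counting error from mouse 700, their lowest library. For Drd1, mouse 698 was not separated from mouse 700 either. For Drd2, mouse 698 stood above mouse 700, at 0.90 against 0.29 TPM, and was not separated from mouse 703. Mouse 703, highest for Drd1 and Ppp1r1b, was in the lower part of the order for Fibcd1 and was not separated by counting error from mouse 700. Wfs1 was highest in mouse 703 in TPM and not in mouse 698, so the order of libraries for Fibcd1 was not that of Wfs1.

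Wfs1, the endoplasmic reticulum protein wolframin (chromosome 5, 36966104 to 36989205, minus strand), had the highest median of the 8 genes at 34.6 TPM. It was at 30.8 TPM in mouse 678, 29.0 TPM in mouse 687, 41.5 TPM in mouse 688, 38.4 TPM in mouse 698, 27.8 TPM in mouse 700 and 42.2 TPM in mouse 703. Mice 688, 698 and 703 formed an upper cluster and the other 3 libraries a lower one, and mice 703 and 688 were not separated by counting error. The highest value was 1.52 times the lowest (95% counting interval 1.46 to 1.58). Mouse 687, first for Drd2 and Adora2a, was next to last for Wfs1. Under TMM scaling, mouse 688 and not mouse 703 was highest, and the highest value was 1.40 times the lowest.

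Spink8, a serine protease inhibitor gene known from CA1 (chromosome 9, 109812280 to 109826633, plus strand), was near the limit of these libraries, with 4 to 11 counts each. Its level was 0.49 TPM in mouse 678, 0.33 TPM in mouse 687, 0.27 TPM in mouse 688, 0.57 TPM in mouse 698, 0.15 TPM in mouse 700 and 0.55 TPM in mouse 703. None of its 5 neighbouring pairs differed beyond counting error, and the ratio of highest to lowest was 3.80 with an interval of 1.21 to 11.9. A full order of libraries could not be read from this gene at this depth, although the interval between its extremes excluded 1.

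By median TPM the 8 genes ran from Wfs1 (34.6) and Ppp1r1b (31.9) through Drd1 (4.19), Prox1 (2.65), Fibcd1 (2.29), Drd2 (1.0) and Adora2a (0.845) to Spink8 (0.41). The ranges of Wfs1 and Ppp1r1b overlapped each other and lay above those of the other 6 genes. The ranges of Drd1, Prox1, Fibcd1, Drd2 and Adora2a overlapped each other, and the range of Spink8 overlapped those of Drd2 and Adora2a. The detected members with a 2-fold range or more were 5 of 7, namely the 4 striatal markers and Fibcd1, beside 21.5% of all detected genes. Under TMM scaling they were 4 of 7, without Ppp1r1b, beside 17.3%. With Spink8, which was not detected, the count was 6 of 8.

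**Figure D2:**
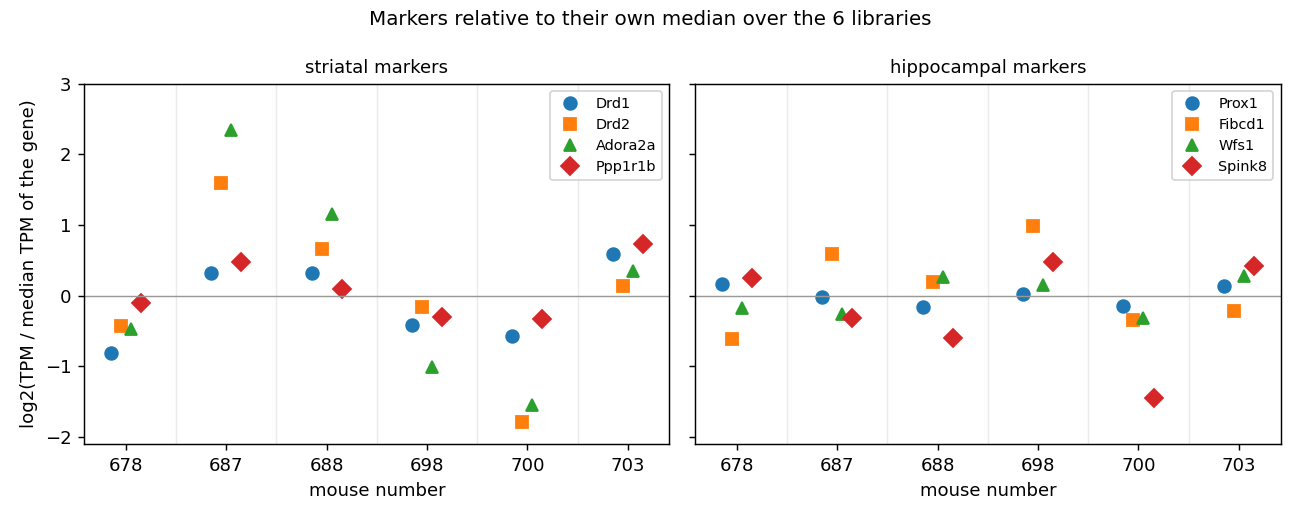
Each marker relative to its own median over the 6 libraries (vertical axis, log2 of TPM over median TPM, no error bars) by mouse number (horizontal axis), striatal markers on the left and hippocampal markers on the right. All striatal points are above 0 in mice 687, 688 and 703 and below 0 in mice 678, 698 and 700. In mouse 687 they reach 2.34 for Adora2a, while Wfs1 is below 0 there. Spink8 rests on 4 to 11 counts per library.

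Whether striatal and hippocampal markers were high in the same libraries was then asked for all 16 pairs of 1 striatal and 1 hippocampal marker. In 2 of the 16 pairs, Drd1 with Wfs1 and Ppp1r1b with Wfs1, both genes had their highest TPM in the same library, which was mouse 703, the library in which 50.0% of all detected genes were highest. Under TMM scaling the count was 0 of 16. In 0 of the 16 pairs did the genes share their 3 highest libraries. Among the 6 pairs of striatal markers, 6 shared their 3 highest libraries and 2 their highest library. Among the 6 pairs of hippocampal markers, 1 shared its 3 highest libraries (Prox1 and Spink8) and 1 its highest library (Fibcd1 and Spink8), and both rest on the few counts of Spink8.

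Correlations over the 6 libraries were computed on log2(TPM + 0.1) for all 16 pairs. Tests are given for the 9 pairs in which neither gene fell into separate clusters, which left out the pairs with Drd1 or Wfs1. Among the pairs left out, the highest Pearson r was 0.54 (Drd1 and Wfs1) and the highest Spearman rho 0.60 (Ppp1r1b and Wfs1). An exact permutation test over all 720 pairings, two-sided, was used, for which the smallest p that a Spearman correlation can reach is 0.00278. Of these 9 pairs, the one with the lowest p was Drd2 and Fibcd1. It had a Spearman rho of 0.60 (exact permutation p = 0.242) and a Pearson r of 0.51 (exact permutation p = 0.297). The Benjamini-Hochberg values of this pair over the 9 pairs were 1.0 for rho and 0.997 for r. Without the 2 libraries farthest from the median of Drd2, r was 0.19. Of the 9 pairs, 0 had a p under 0.05 in either measure. Pairs with Prox1 or Spink8, from which no full order of libraries could be read, could show little. This leaves the pairs with Fibcd1 as the more informative ones. The signs depended on the unit, as rho was positive in 12 of all 16 pairs in TPM, in 8 under TMM scaling and in 6 in TPM over nuclear protein-coding genes. They also depended on mouse 700, without which 4 of 16 were positive in TPM. Leaving out any other single library gave 11 to 15. With 6 libraries, a weak relation between the markers of the 2 structures would not be detected.

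**Figure D3:**
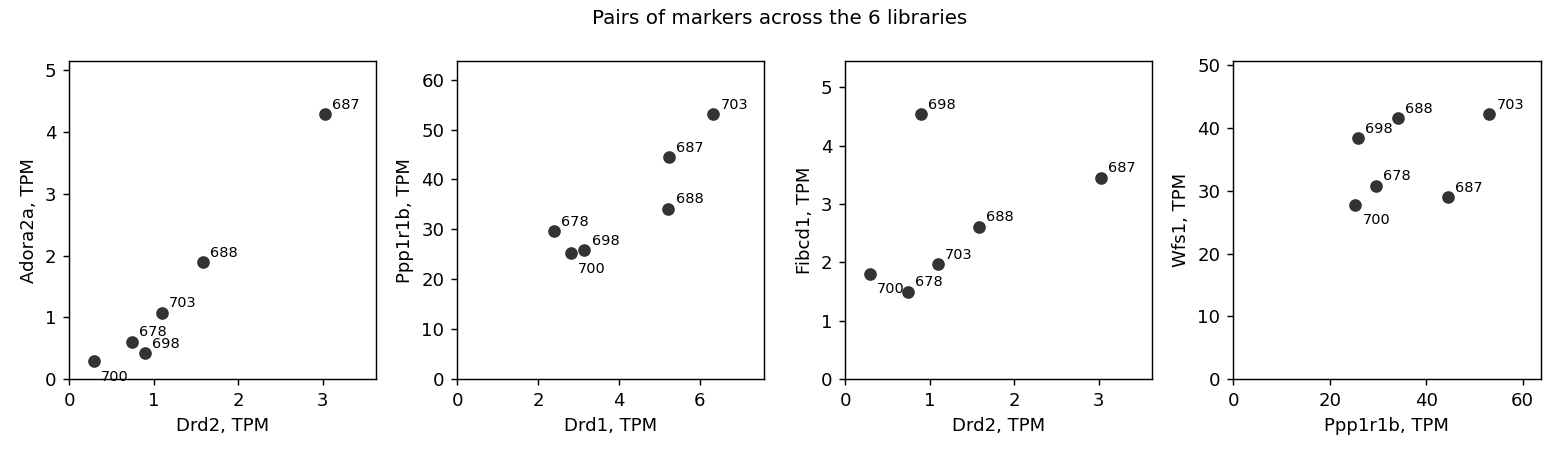
TPM of 1 marker against another (both axes in TPM, from 0), with each point a library named by its mouse number. Drd2 and Adora2a, and Drd1 and Ppp1r1b, place mice 687, 688 and 703 above the other 3 libraries on both axes. For Drd2 and Fibcd1, mouse 698 is highest on Fibcd1 at 4.54 TPM with 0.90 TPM of Drd2. For Ppp1r1b and Wfs1, mouse 687 is second on Ppp1r1b and next to last on Wfs1.

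The members were next set beside other genes of the same cells, from lists of known markers. Of 18 other genes of striatal projection neurons, 15 were detected, and 10 of these 15 had their 3 highest TPM values in mice 687, 688 and 703, the libraries of the striatal markers, beside 9.34% of all detected genes. Under TMM scaling this was 9 of 15, without Rgs9, beside 12.8% of all detected genes. Penk, Tac1, Rasd2, Syndig1l, Lrrc10b, Rarb, Six3 and Rxrg were among those in both counts. Penk, the enkephalin precursor of indirect pathway neurons, had 13.1 TPM in mouse 678, 31.9 TPM in mouse 687, 18.7 TPM in mouse 688, 8.94 TPM in mouse 698, 9.41 TPM in mouse 700 and 37.7 TPM in mouse 703. Its highest TPM was in mouse 703, as for Drd1 and Ppp1r1b, and not in mouse 687, as for Drd2 and Adora2a. Under TMM scaling Penk was level in these libraries, at 38.8 CPM in mouse 703 and 38.7 in mouse 687. Rasd2, a small GTPase enriched in striatum, ran from 14.7 TPM in mouse 700 to 25.1 TPM in mouse 703, and under TMM scaling mouse 687 was the highest. Chrm4, the M4 muscarinic receptor, went another way, with its lowest value of 10.6 TPM in mouse 687 and its highest of 22.3 TPM in mouse 688.

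The following striatal genes were singled out after their values were seen. Gpr6, an orphan receptor known from indirect pathway neurons, had 2.65 TPM in mouse 687 and 1.11 to 1.45 TPM in the other libraries, and so shared with Drd2 and Adora2a its highest library but not its 3 highest. Tac1, the substance P precursor of direct pathway neurons, had 4.82 TPM in mouse 678, 6.27 TPM in mouse 687, 6.35 TPM in mouse 688, 3.69 TPM in mouse 698, 3.17 TPM in mouse 700 and 8.15 TPM in mouse 703. Its 3 highest libraries and its highest library were those of Drd1. Pdyn, the dynorphin precursor of the same neurons, ran from 5.09 to 6.38 TPM, with mouse 700 among its 2 highest libraries. Six3, a transcription factor of striatal development, was at 0.50, 0.30 and 1.14 TPM in mice 687, 688 and 703, and at 0.05, 0.00 and 0.03 TPM in mice 678, 698 and 700. Isl1, a direct pathway factor, was under the detection limit at 0.05 to 0.25 TPM.

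Of 14 other genes of dopamine, adenosine and cAMP signalling, 12 were detected and 8 of them had the same 3 highest libraries as the striatal markers, beside 9.34% of all detected genes. This was 7 of 12 under TMM scaling, beside 12.8%, and 6 of 12 in TPM over nuclear protein-coding genes, beside 10.9%. Their ranges were near those of all genes, with 3 of 12 reaching a 2-fold range beside 21.5% of all detected genes, and a median ratio of highest to lowest of 1.49 beside 1.51. Ppp3ca, the catalytic subunit of calcineurin that acts on DARPP-32, ran from 182 TPM in mouse 700 to 271 TPM in mouse 703. The protein kinase A substrates Arpp21 and Arpp19 ran from 124 to 171 TPM and from 89.3 to 122 TPM. Adcy5, the main adenylyl cyclase of striatal neurons and chosen after its values were seen, had 16.1 TPM in mouse 678, 24.7 TPM in mouse 687, 24.2 TPM in mouse 688, 20.5 TPM in mouse 698, 14.3 TPM in mouse 700 and 30.4 TPM in mouse 703. Like Drd1, it was highest in mouse 703 and close in mice 687 and 688. The other dopamine receptors, also picked after their values were seen, were near their limits, with Drd3 and Drd4 not detected and Drd5 highest in mouse 698 at 0.66 TPM.

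The 4 striatal markers together summed to 33.4 TPM in mouse 678, 57.0 TPM in mouse 687, 42.8 TPM in mouse 688, 30.3 TPM in mouse 698, 28.7 TPM in mouse 700 and 61.6 TPM in mouse 703. The 4 hippocampal markers together summed to 35.8 TPM in mouse 678, 35.4 TPM in mouse 687, 46.8 TPM in mouse 688, 46.2 TPM in mouse 698, 32.2 TPM in mouse 700 and 47.6 TPM in mouse 703. Ppp1r1b makes up most of the first sum and Wfs1 most of the second. In TPM over nuclear protein-coding genes alone, mouse 687 and not mouse 703 was highest for the striatal markers, at 232 against 214, and mouse 688 was highest for the hippocampal markers at 192. In bulk tissue such as this, fewer cells of a type and less RNA per cell cannot be told apart.

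**Figure D4:**
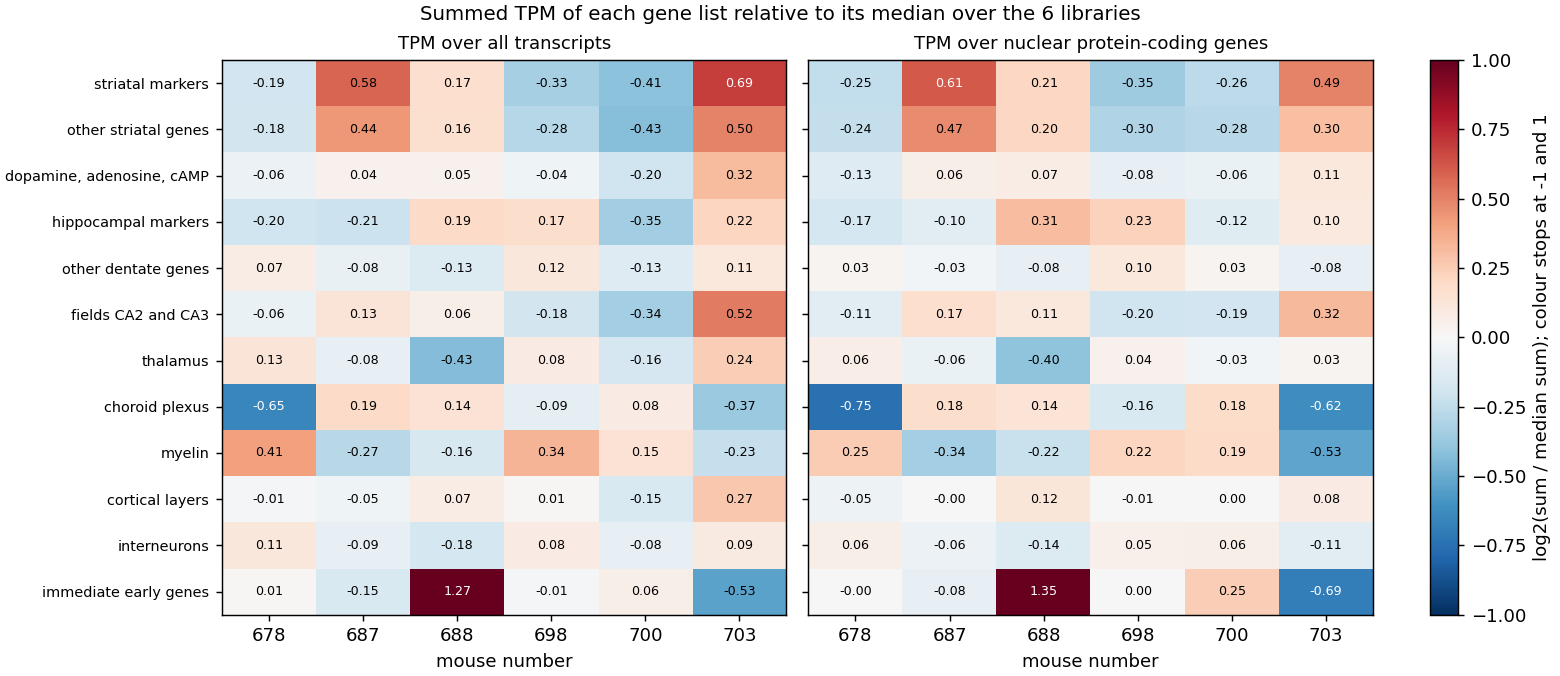
Summed TPM of each gene list relative to its own median over the 6 libraries (colour and printed number, log2), with gene lists as rows and mouse numbers as columns. The left panel uses TPM over all transcripts and the right panel TPM over nuclear protein-coding genes. In both panels the 2 striatal rows are above 0 in mice 687, 688 and 703. So are the rows of dopamine, adenosine and cAMP genes and of fields CA2 and CA3. The myelin row is below 0 in these mice, and the immediate early gene row is highest in mouse 688.

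The hippocampal markers had no common order of libraries to which other genes of the hippocampus could be compared. Of 9 other dentate genes, 7 were detected, and their sum stayed between 24.3 and 28.9 TPM. Single genes varied more than this sum, with 5 of 7 reaching a 2-fold range and a median ratio of highest to lowest of 2.29, beside 21.5% and 1.51 over all detected genes. The highest by median were Stxbp6, a SNARE-binding protein at 12.8 to 17.1 TPM, the cation channel Trpc6 at 3.80 to 6.38 TPM and the polo-like kinase Plk5 at 2.33 to 8.70 TPM. C1ql2, a secreted protein of dentate mossy fibres and chosen after its values were seen, had 3.81 TPM in mouse 678, 1.78 TPM in mouse 687, 0.84 TPM in mouse 688, 3.80 TPM in mouse 698, 2.20 TPM in mouse 700 and 0.46 TPM in mouse 703. Its 3 lowest values were thus in mice 687, 688 and 703. Dsp, a defining dentate marker also chosen after its values were seen, was at 0.01 to 0.02 TPM in every library.

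Of 9 genes of fields CA2 and CA3, 8 were detected, and 4 of the 8 had their 3 highest values in mice 687, 688 and 703, beside 9.34% of all detected genes. Under TMM scaling this was 3 of 8, beside 12.8%. Rgs14, a signalling regulator known from CA2, ran from 8.91 TPM in mouse 700 to 20.2 TPM in mouse 703, Bok, a BCL2 family member, from 7.12 to 13.7 TPM, and the adhesion protein Nectin3 from 7.37 to 10.3 TPM. The sum of the list was 42.4 TPM in mouse 678, 48.6 TPM in mouse 687, 46.3 TPM in mouse 688, 39.1 TPM in mouse 698, 35.0 TPM in mouse 700 and 63.5 TPM in mouse 703. This order of libraries was that of the summed striatal markers in TPM. In TPM over nuclear protein-coding genes, mice 687, 688 and 703 were again highest, at 198, 190 and 220. The relation of this list to the striatal markers was not tested.

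Summed levels of markers of cells outside striatum and hippocampus did not have the order of libraries of the striatal markers. Myelin genes were lowest in the libraries where the striatal markers were highest: the 8 genes, with Mbp and Mobp among the highest, summed to 805 TPM in mouse 678, 502 TPM in mouse 687, 543 TPM in mouse 688, 769 TPM in mouse 698, 672 TPM in mouse 700 and 518 TPM in mouse 703. Thalamic genes, led by Slc17a6, Rgs16 and Tcf7l2, summed to 17.2 to 27.4 TPM, with the lowest sum in mouse 688 and the highest in mouse 703, and the thalamic factor Gbx2, chosen after its values were seen, was at 0 to 0.05 TPM. Choroid plexus genes were low in all libraries, at a summed 2.33 to 4.17 TPM, with Ttr at 0.25 to 2.13 TPM, Kcnj13 at 0.77 to 1.25 TPM and Kl at 0.60 to 0.89 TPM. Cortical genes summed to 519 to 696 TPM, lowest in mouse 700 and highest in mouse 703 as TPM in general were, and 1 of the 10 (Rorb) had the 3 highest libraries of the striatal markers. The 12 immediate early genes, led by Egr1, Arc and Nr4a1, all had their highest TPM in mouse 688, and none of them had the 3 highest libraries of the striatal markers. The part of these cell types in the levels of the members was not tested.

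The genes whose levels were most like each member were found among all detected genes with a log2 range of at least 0.5, as the 5 with the highest Pearson r of log2(TMM CPM + 1) over the 6 libraries. Among the genes most like Drd1 were Cyp4x1 (r of 0.996), Rsph4a, 6530402F18Rik and Ntng2. Drd2 was most like Tmem47 (0.992), Abhd10, Gm5912, Tmem56 and Emx2os. Adora2a was most like Abhd10 (0.984), Syndig1l, Cd4, Car3 and Xlr3a, and Ppp1r1b was most like Rgs17 (0.992), Penk, Pgam2, CT486005.1 and Trpc7. Syndig1l and Penk are genes of the striatal list. Adora2a was ninth in the order for Drd2 and Drd2 eleventh in the order for Adora2a, out of 3512 candidates. The other striatal markers stood lower in each other's orders. For Drd1, Ppp1r1b was at place 385, Adora2a at 679 and Drd2 at 686, and for Ppp1r1b, Drd1 was at place 286, Adora2a at 507 and Drd2 at 686.

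For the hippocampal markers, Prox1 was most like Rnf152 (0.966), Vamp1, Gm7887, Hba-a2 and Ddt. Fibcd1 was most like Slc26a4 (0.971), Cpne7, Slc9a4, Ntng1 and Dcn. Wfs1 was most like Zfp469 (0.994), Lars2, Fnip2, Gm42418 and Ccnd2. Lars2 ran from 1584 to 3244 TPM and Gm42418 from 9940 to 21056 TPM, both lowest in mice 687 and 700, where the TPM of Wfs1 was also lowest, while under TMM scaling Wfs1 was lowest in mice 687 and 678. No striatal or hippocampal list gene was among the genes most like these 3 markers. These lists depend on the unit, since with log2(TPM + 0.1) between 0 and 2 of the 5 genes were again among the 5 for each of the 7 detected members, and with 6 points many genes reach a high r.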

How the data were processed

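Cortex RNA-seq of 6 numbered mice was analysed. According to the methods and labels, the authors used cutadapt for adapter removal, STAR for alignment to mm10 and RSEM for quantification. Tool versions are not given in the sources. The labels name TRIzol, rRNA depletion and the NEB Ultra II Directional kit, and the methods name RNeasy columns. For each of 142351 transcripts the authors deposited an expected count without normalization. The deposited TPM values are relative to the total of those transcripts. A further 18 value columns were not used. Because TPM is a share of all RNA, an abundant non-coding RNA shifts every other gene, and nuclear protein-coding genes held 22.7% to 28.8% of TPM.

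Both values were summed per GENCODE M21 gene symbol by transcript identifier without version, for 99.4% of transcripts (910 did not match), and counts were rounded. Genes with a mean count of at least 10 were taken as detected. Alternatives were TMM factors (edgeR 4.0.16 in R 4.3.3), DESeq2 1.42.0 size factors, TPM over nuclear protein-coding genes, a pseudocount of 1, no filter on low counts and leaving out each library. Drd1 without the transcript Drd1-202, and the count of genes with their 3 highest values in mice 687, 688 and 703, in TPM and in other units, were added after seeing the data. Ratio intervals (95%) treat counts as Poisson on the log scale. Permutation tests used scipy 1.17.1 and the steps across genes were tested on simulated data. Values were said to cluster when the widest gap in the ordered log2 values was larger than the spread of the values above it and of those below it. The text names the members, the 3 genes with the highest median TPM of each of the other 10 lists and the 5 genes most like each detected member, genes that make up a count are named with it, and other genes singled out are said to be chosen after their values were seen. Some genes that this rule takes are not reported here. The members and lists were chosen with earlier results of these data known.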

Additional observations from a re-analysis of the deposited data

Results flagged for a closer look

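The summed TPM of the 12 immediate early genes was 705 in mouse 688, against 202 to 305 in the other 5 libraries. The gap between mouse 688 and the next library was 0.795 of the whole range, beyond the 95% limit of the Dixon ratio for 6 samples. Of 20 values examined in this way, the 8 members and the 12 list sums, it was the one beyond the limit, and chance alone places about 1 in 20 there. Mouse 688 was among the 3 highest libraries for each of Drd1, Drd2, Adora2a and Ppp1r1b. The relation of these genes to the members was not tested.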

How the results depend on the processing

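The count of members with a 2-fold range was 6 and stayed at 5 or 6 under every alternative run, with Spink8 counted. Striatal and hippocampal pairs with a Spearman p under 0.05 were 0 of 9 in TPM over nuclear protein-coding genes and with a pseudocount of 1, and 0 of 4 under TMM scaling and DESeq2 size factors. Omitting a library left 1 to 9 pairs without clusters and 0 such p, and without mouse 687 no pair was left to test, so these counts say little. The 2 pairs with the same highest library became 0 under TMM scaling, 0 under DESeq2 size factors and 0 in TPM over nuclear protein-coding genes, since Wfs1 was then highest in mouse 688. Omitting each library in turn gave 0 to 6 pairs, with 4 without mouse 678, 6 without mouse 698 and 0 without mouse 703. The ratio of highest to lowest moved most for the genes with few counts. It was 4.09 for Drd2 without mouse 700 and 5.45 without mouse 687, and 6.52 for Adora2a without mouse 687. For Spink8 it was 2.11 without mouse 700. With a pseudocount of 1 it was 3.12 for Drd2, 4.10 for Adora2a and 1.37 for Spink8. Leaving out Drd1-202 gave 2.42 for Drd1. Without a filter on low counts, 53.8% of genes had a 2-fold range. No paired analysis was possible because KO and WT libraries were not compared. Depth limits Spink8, and with 1 file per mouse and no known genotype, dissection, animal and Larp1 genotype cannot be told apart as sources of a difference between libraries.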

Other observations

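The authors' estimate for the transcript Drd1-202 took near-identical values in 4 libraries, at 68.1 expected counts in mouse 687, 68.3 in mouse 698, 68.1 in mouse 700 and 68.1 in mouse 703, with 136 in mouse 688 and 0 in mouse 678. Without it, Drd1 was at 2.39 TPM in mouse 678, 4.80 TPM in mouse 687, 4.25 TPM in mouse 688, 2.57 TPM in mouse 698, 2.38 TPM in mouse 700 and 5.76 TPM in mouse 703, so the 3 highest libraries were those of the whole gene.

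Deep layer genes, chosen after their values were seen because Drd1 and Ppp1r1b are also known from deep cortical layers, did not share one order. Nxph4, known from layer 6b, had 4.68 TPM in mouse 703 and 1.41 to 1.99 TPM in the other libraries. Ccn2, of the same layer, was highest in mouse 688 at 12.6 TPM and lowest in mouse 700 at 6.84 TPM. Under TMM scaling Ccn2 was lowest in mouse 678, at 15.5 CPM. Fezf2, a factor of layer 5 and 6 neurons, was highest in mouse 698 at 17.1 TPM and lowest in mouse 703 at 8.05 TPM. Tbr1, a layer 6 factor, was highest in mouse 703 at 39.5 TPM and lowest in mouse 700 at 27.6 TPM. Under TMM scaling Tbr1 was also highest in mouse 703, at 124 CPM, but lowest in mouse 687, at 108 CPM. Mouse 703 was the library with the highest Drd1 and Ppp1r1b. Calb2, of interneurons and chosen in the same way, had 12.2 TPM in mouse 703 and 4.27 to 6.69 TPM in the other libraries.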
